A study of Xiphophorus maculatus with 24 samples.

Results

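Genes of DNA replication and mitosis were followed over the day in skin of male *Xiphophorus maculatus* Jp 163 A, an inbred platyfish strain. Members were chosen by symbol: every gene of the count table whose symbol in the lists of cyclic genes or of single-copy genes published with the data begins with mcm and a digit, orc, gins, cdc, cdk, ccna, ccnb, ccne, cenp, bub, aurk, plk, ncap or kif. The rule found 145 of 24209 genes. The list of cyclic genes holds 60 of them, 22 of which are in no other list used here, and it was drawn up from 9 organs that included skin of these fish, so membership is not wholly independent of the daily course in the first collection. Because the rule works on letters, it also takes genes with other work: 23 members act in S phase (18 in origin recognition, licensing, helicase and firing, 5 as cyclins, kinase or S-phase factors), 35 act in mitosis, 4 are core subunits of the anaphase-promoting complex (APC/C), 3 are G1 kinases, 7 are inhibitors of cyclin-dependent kinases (CDKs), and 73 have other roles or none assigned here, among them transport kinesins, effectors of the GTPase cdc42 and transcriptional CDKs.

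The data are gene counts from 24 skin RNA-seq libraries in 2 collections, each library from a separate fish and 2 fish per time point. The first collection held 16 fish with a labelled age of 24 months, taken every 3 h from zeitgeber time (Zt, h after lights on) 0.5 to Zt 21.5, at 8 time points. The second held 8 fish with a labelled age of 12 months, taken every 6 h from Zt 0.5 to Zt 18.5, at 4 time points. The labels give the collections different years, no fish was treated, and year, age and preparation cannot be told apart between them. Lights went off after Zt 12.5, so that point is the last in the light.

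In a dividing cell, the origin recognition complex and cdc6 load the ring-shaped MCM helicase onto DNA in G1, and cdc45 and the GINS complex turn it on as S phase begins, under cyclin E with cdk2. Entry into mitosis needs cyclin B with cdk1, which the phosphatase CDC25B activates; polo-like and aurora kinases, condensin, the kinetochore and spindle kinesins then part the chromosomes, and the APC/C with its activator cdc20 ends mitosis. In skin the dividing cells sit mainly in the epidermis, and in several fish and mammals their S phase and mitosis tend to fall at set times of day.

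Total counts were 25736825 to 36066368 per library (median 31421046). The library of first-collection fish A at Zt 9.5 stood apart, with 4828 of 13545 genes under 50% of their median in the first collection against 43 to 481 in the other libraries of that collection, and values at Zt 9.5 are therefore given fish by fish. Fish of the same time point differed far beyond counting noise, and no pair looked like 1 library deposited in duplicate. In the first collection the 4 time points shared with the second hold fish lettered C and D, and the 4 between them hold fish lettered A and B, so letters alternate with time; the second has A and B throughout. What a letter marks is stated neither in the labels nor in the methods, and its part in the daily course cannot be told apart from the time of day. In whole skin, fewer dividing cells and less RNA per dividing cell cannot be told apart either.

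Of the 145 members, 141 had enough counts for the test between collections and 135 had a mean above 1 cpm (counts-per-million, scaled by total count) at 2 or more of the first-collection time points. *cenpl* and *cdkn2aipnl* had no counts in any library, which allows up to 0.0832 to 0.117 cpm depending on the library. The germ-line cyclin *ccna1*, with 15 counts over all libraries, and *cdk5r2b*, a neuronal activator of cdk5, with 64, were too low to test. *ccna2*, the S-phase and G2 cyclin A, was not analysed here.

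In the first collection the S-phase members were highest in the middle of the light phase. Of 23 S-phase members, 17 had their highest mean in the first collection at Zt 6.5, against 17.6% of all 16963 expressed genes, and 17 had their lowest at Zt 9.5, against 39.8% of all genes. Without the library of Zt 9.5 fish A, 17 again were lowest at Zt 9.5, where all genes came to 12.9%. With TMM-scaled library sizes the lowest count was 11 of 23 against 24.8% of all genes, and leaving out fish B of Zt 15.5 also gave 11, while the count highest at Zt 6.5 stayed at 17 under TMM and between 16 and 19 when any 1 library was left out.

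*mcm2* (ENSXMAG00000000302; X_maculatus-5.0-male chromosome 20, 3375060 to 3386299), a subunit of the replicative helicase, shows the course. In order of Zt, the 8 pairs of the first collection had 87.8 and 87.3, 80.9 and 88.0, 118 and 120, 22.2 and 21.2, 49.1 and 73.2, 42.0 and 76.8, 73.0 and 59.8, and 91.9 and 79.9 cpm. Both fish of Zt 6.5 were above, and both fish of Zt 9.5 below, every other library of the first collection. The 2 fish of Zt 9.5 were nearly equal although only fish A stood apart over all genes.

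*mcm4* (ENSXMAG00000019042; chromosome 6, 17250031 to 17258582), another helicase subunit, fell further between those time points. Its Zt 6.5 pair had 70.3 and 69.1 cpm and its Zt 9.5 pair 4.35 and 9.91 cpm, while the other libraries of the first collection lay between 16.7 cpm (Zt 12.5) and 58.8 cpm (Zt 3.5). *mcm6*, a further helicase subunit, had 99.4 and 103 cpm in its Zt 6.5 pair, then 19.4 and 17.8 cpm. For *mcm6* too, the Zt 6.5 pair was the highest and the Zt 9.5 pair the lowest of the 8 pairs.

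The kinase *cdk2* (ENSXMAG00000003326; chromosome 20, 21734101 to 21739926) followed the helicase at a lower level: its Zt 6.5 pair had 22.9 and 20 cpm against 5.21 and 6.96 cpm 3 h later. *orc1*, the largest subunit of the origin recognition complex, was also highest at Zt 6.5 (30.7 and 32.9 cpm), but at Zt 9.5 its fish had 16.4 and 10.6 cpm and overlapped those of Zt 15.5, at 11.1 and 19.8 cpm. The S-phase members not highest at Zt 6.5 were *cdc45*, *mcm10* and *cdca7b* (highest at Zt 12.5), *gins1* (Zt 9.5), *orc2* (Zt 21.5) and *orc5* (Zt 0.5). Without the library of Zt 9.5 fish A, 0 of 23 S-phase members were highest at Zt 9.5, so the place of *gins1* rests on that fish. *cdc45*, the partner that switches the helicase on, had 33.2 and 26.3 cpm at Zt 12.5, which overlapped the 22.0 and 27.0 cpm of Zt 6.5.

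**Figure D1:**
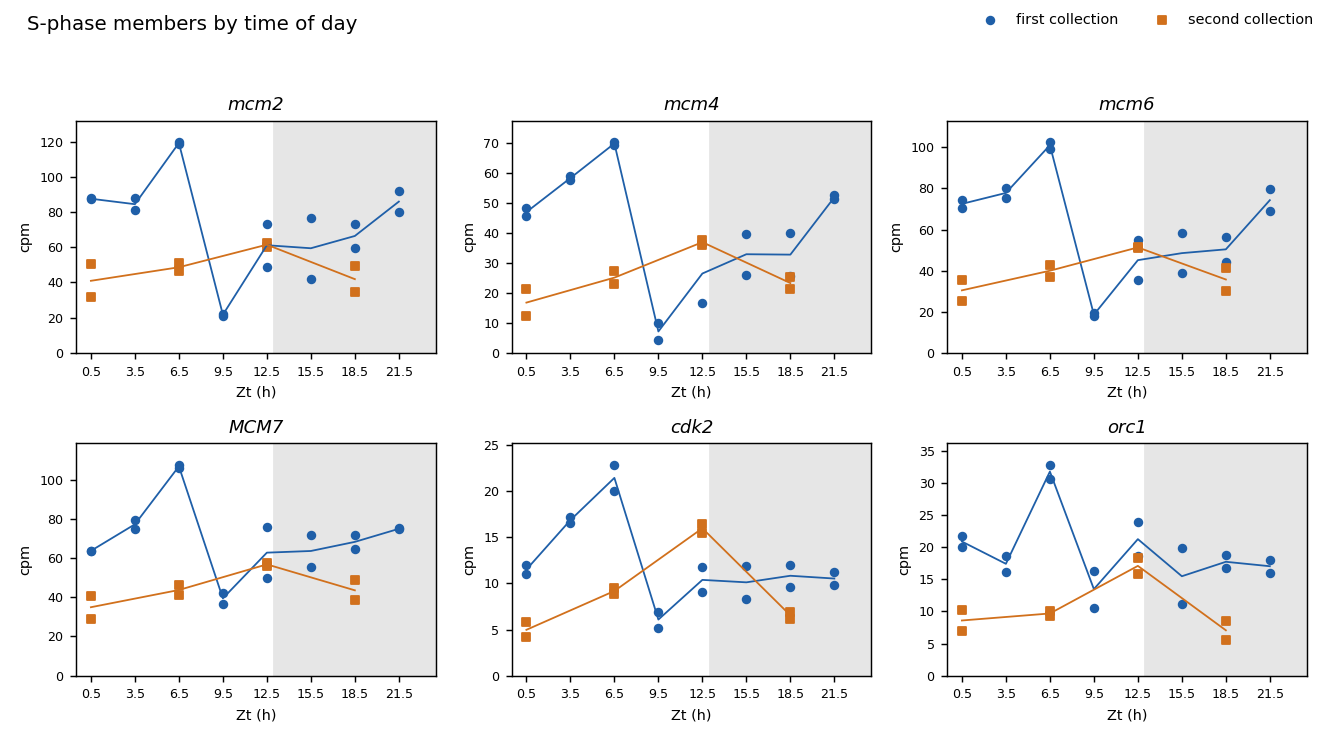
Levels of 6 S-phase genes in cpm (y axis, linear) against Zt in h (x axis); each point is 1 fish, lines join the means of 2 fish, circles are the first and squares the second collection, and grey marks the dark phase. In the first collection the genes were highest at Zt 6.5 and, for *mcm2*, 22.2 and 21.2 cpm at Zt 9.5 followed 118 and 120 cpm; in the second collection, with no fish at Zt 9.5, the highest mean was that of Zt 12.5.

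In the first collection the mitotic members were highest at the end of the light phase, later than the S-phase members. Of the 34 mitotic members with counts, 32 had their highest mean in the first collection at Zt 12.5, against 14.7% of all expressed genes, and 30 had their lowest at Zt 3.5, against 16.2%. The count at Zt 12.5 was 31 or 32 when any 1 library was left out and 30 with TMM-scaled library sizes. Without fish B of Zt 9.5 the count lowest at Zt 3.5 fell to 20. The exceptions at the top were CENPS, a centromere protein that also serves DNA repair (highest at Zt 3.5), and the phosphatase CDC25B (highest at Zt 18.5).

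*cdk1* (ENSXMAG00000014740; chromosome 22, 29066198 to 29071783), the mitotic kinase, had, in order of Zt, 49.6 and 63.1, 23.1 and 18.3, 39.8 and 58.8, 86.9 and 42.6, 113 and 82.5, 38.8 and 40.5, 59.1 and 40.6, and 34.8 and 35.1 cpm. The Zt 3.5 pair was the lowest, and the Zt 12.5 pair overlapped only fish A of Zt 9.5. Its partner *ccnb1*, cyclin B1 (ENSXMAG00000008584; chromosome 8, 4102543 to 4106519), rested at 11.5 and 11.0 cpm in the Zt 3.5 pair and had 72.8 and 46.2 cpm in the Zt 12.5 pair. The Zt 12.5 pair of *ccnb1* overlapped that of Zt 0.5, at 36 and 52.5 cpm.

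Polo-like kinase *PLK1*, which drives centrosome and kinetochore steps, had 18.7 and 13.9 cpm in the Zt 3.5 pair and 85.4 and 55.7 cpm in the Zt 12.5 pair, with 56.3 cpm in fish D of Zt 0.5. The spindle checkpoint kinase *BUB1* went from 3.20 and 1.84 cpm to 22.2 and 12.9 cpm between the same pairs. *cenpf* (ENSXMAG00000015125; chromosome 4, 12760403 to 12791188), a large kinetochore protein, went from 26.5 and 21.4 cpm to 136 and 83.9 cpm. At each of these 3 genes the fish lettered C was the higher of the Zt 12.5 pair.

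The same held for the whole group: fish C of Zt 12.5 had the higher value in 34 of 34 mitotic members, and its summed mitotic level was 1678 cpm against 1225 cpm in fish D. Members therefore moved together from fish to fish, and the 34 genes are not 34 separate pieces of evidence for a time of day. Between the 2 fish of Zt 15.5, the S-phase members likewise shared 1 direction, with fish B higher in 23 of 23. Summed mitotic levels were 507 to 792 cpm in the 8 fish lettered A or B (median 746) and 729 to 1678 cpm in the 8 lettered C or D (median 1024), and only fish C of Zt 6.5 (729 cpm) among the latter fell within the range of the former. Summed S-phase levels overlapped more, at 248 to 609 cpm in A or B and 403 to 810 cpm in C or D.

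**Figure D2:**
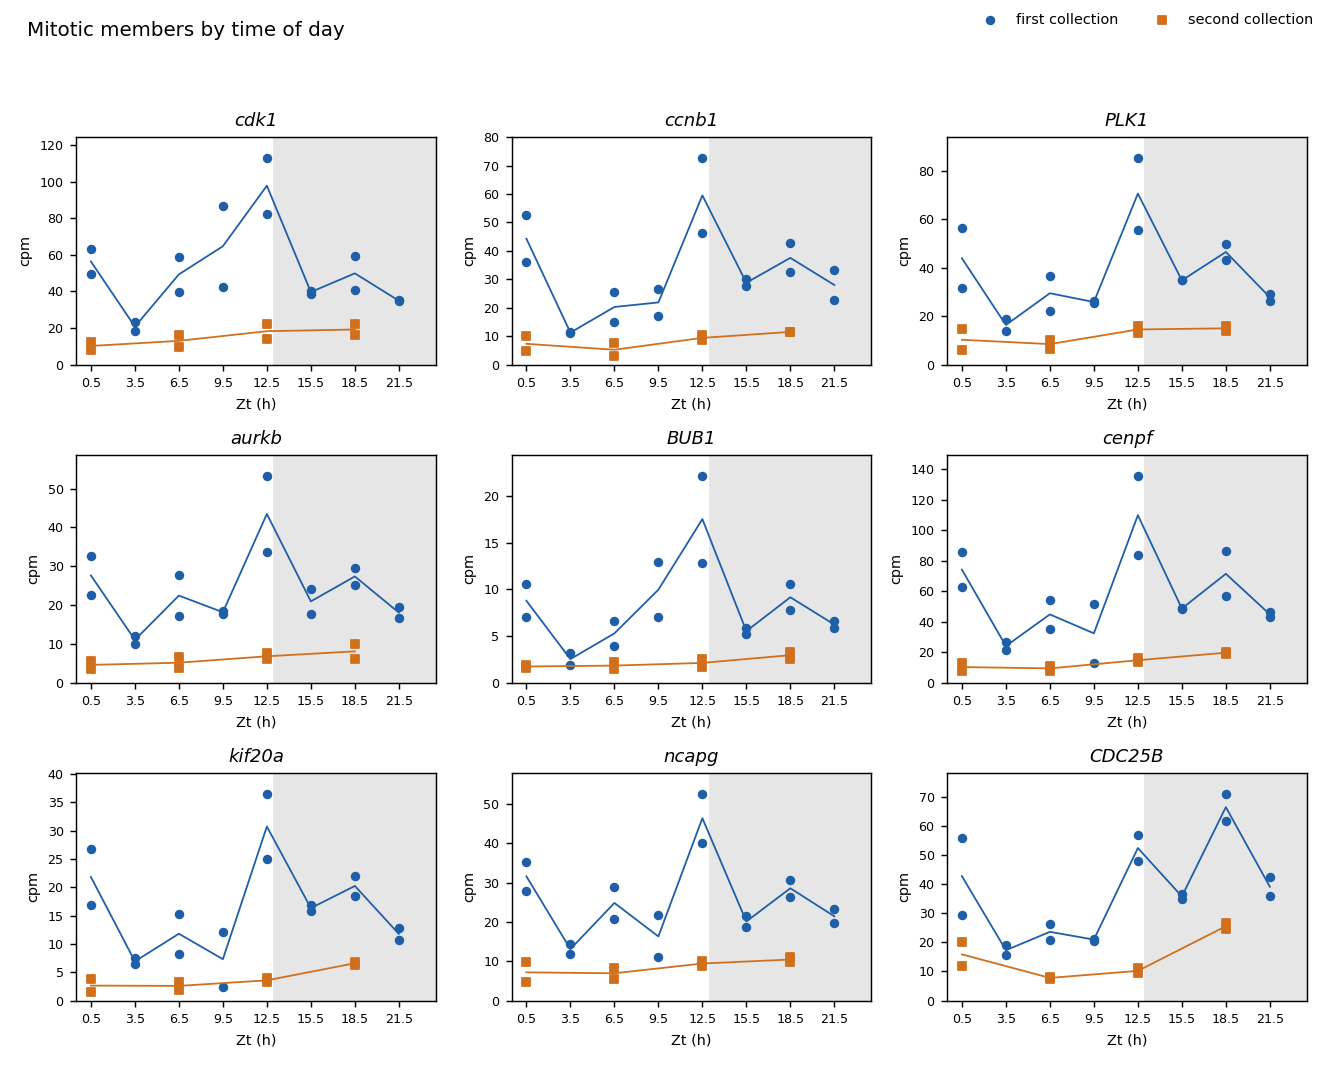
Levels of 9 mitotic genes in cpm (y axis, linear) against Zt in h (x axis), drawn as in the plot of S-phase genes. All but *CDC25B* had their highest mean in the first collection at Zt 12.5, as in *cdk1* with 113 and 82.5 cpm, and the second-collection squares lay lower, at 7.88 to 22.3 cpm for *cdk1*.

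The span of the day was wider for the mitotic members than for the S-phase members. The ratio of the highest to the lowest time point mean had a median of 3.63 over mitotic members, 2.36 over S-phase members and 2.03 over all expressed genes in the first collection. In the second collection, with 4 time points, the medians were 1.74, 1.57 and 1.49.

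Few members passed a test of a daily rhythm in the first collection. The first test below used the mean of the 2 fish of each time point, so the spread between them did not enter its p. An exact rank test of 1 rise and 1 fall over the 8 time point means, with the study's threshold of p under 0.01, called 4.65% of all genes (789 of 16963) and 5 of 135 members: *cdc42ep3*, *cdc123*, *kif7*, *cdk5rap3* (each p = 0.00595) and the APC/C subunit *cdc26* (p = 0.00992). None of the S-phase or mitotic members was called by this rank test at 0.01 or at 0.05. No gene of the table had an adjusted p under 0.05. The test looked only for rises of 3 to 5 of the 8 steps. Of 23 S-phase members, 17 were highest at Zt 6.5 and 17 lowest at Zt 9.5. A course with both rises for longer than 5 steps and lies outside the shapes tested. For S-phase members of that shape, the lack of calls therefore does not decide whether they had a daily rhythm. The p-values 0.00595 and 0.00992 of this rank test are the smallest that the 40320 orders of 8 means can give. The count of members ranged from 1 to 6 when 1 library was left out and was 1 with TMM-scaled sizes. With all 24 libraries the test called 7 members at 0.01, 3 of them mitotic, beside 779 of 17064 genes. Those means averaged both collections at the shared time points, with no term for collection. They therefore carry the level difference between collections, and these calls cannot be read as a daily rhythm alone. With no limit on the length of the rise it called 1, in S phase, beside 222 of 16963 genes.

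A 24-h cosine fitted to the first-collection counts with edgeR's quasi-likelihood test (Benjamini-Hochberg adjustment over all genes tested) called 1.56% of all genes (288 of 18436) and 3 of 140 members, with 30 at an unadjusted p under 0.05. None of the 23 S-phase members was called (6 at an unadjusted p under 0.05; 2 by DESeq2), and none of the 34 mitotic members (1 at an unadjusted p under 0.05; 1 by DESeq2), where DESeq2 called 9.22% of all genes. With each time point as its own level, *mcm4* (adjusted p = 0.0241) and the condensin subunit *ncapg* (adjusted p = 0.0457) were among 4 members called, beside 1.41% of all genes. With both Zt 9.5 libraries left out, 19 members were called, 5 of them in S phase, but so were 16.3% of all genes.

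The 3 members called in the first collection were *cdkn1d* and *cdkn1a*, CDK inhibitors of the Cip/Kip family, and *kif7*, a kinesin of hedgehog signalling at the cilium. Their calls lay near the threshold: leaving out 1 library ended that of *cdkn1a* in 9 of 16 cases, of *cdkn1d* in 10 and of *kif7* in 13. The adjusted p ranged over all alternatives up to 0.0965, 0.0876 and 0.146. *cdkn1d* is a member only through the list of cyclic genes. Its calls in fits that include the first collection are therefore not independent of how members were chosen. Over all genes, the fits without 1 library called 131 to 1187, against 288 with every library. *kif7* had 10.3 and 11.9 cpm in its Zt 3.5 pair, 21.8 and 25.1 cpm in its Zt 12.5 pair, and its fitted amplitude was 0.40 ± 0.08 (SE, log2) with a peak at Zt 14.3 (adjusted p = 0.0482).

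*cdkn1a* (ENSXMAG00000001096), which encodes p21 and halts the cycle after damage or at differentiation, had a fitted daily course in both collections. In the first collection the 8 pairs had, in order of Zt, 7.43 and 7.79, 3.41 and 4.11, 8.52 and 8.90, 4.31 and 3.27, 10.8 and 17.1, 18.2 and 17, 23.6 and 16.8, and 8.52 and 19.7 cpm. The pairs of Zt 3.5 and 9.5 were the lowest, and fish of the light and dark phases overlapped, since fish A of Zt 21.5 was level with the Zt 6.5 pair. The 4 pairs of the second collection had, in order of Zt, 3.52 and 3.23, 2.72 and 2.15, 9.0 and 6.25, and 25.2 and 20.3 cpm. The second-collection pairs of Zt 12.5 and 18.5 overlapped no other, and the fitted peaks lay at Zt 17.1 in the first collection (amplitude 0.89 ± 0.18, adjusted p = 0.0392) and Zt 17.2 in the second collection (amplitude 1.72 ± 0.17, adjusted p = 0.000422).

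*cdkn1d* (ENSXMAG00000027656), a further Cip/Kip inhibitor of fish, was highest around dusk. In the first collection its Zt 12.5 pair had 61.7 and 81.8 cpm and its Zt 15.5 pair 86.8 and 37.4 cpm, against 15.2 and 16.1 cpm in the Zt 21.5 pair. At Zt 9.5 the 2 fish were far apart, with 6.88 cpm in fish A and 82.8 cpm in fish B. The 4 pairs of the second collection had 19.9 and 21.0, 47.3 and 42.8, 55.6 and 75.1, and 13.4 and 17.6 cpm in order of Zt, with fitted peaks at Zt 12.8 in the first collection (adjusted p = 0.0326) and Zt 9.6 in the second collection (adjusted p = 0.00111).

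*cdkn1bb*, a copy of the p27 inhibitor, was highest at Zt 18.5 in both collections (38.8 and 62.7 cpm in the first, 29.4 and 33.8 cpm in the second) but was called in neither (adjusted p = 0.109 and 0.0777). In the second collection its Zt 18.5 pair overlapped those of Zt 0.5 and 6.5.

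**Figure D3:**
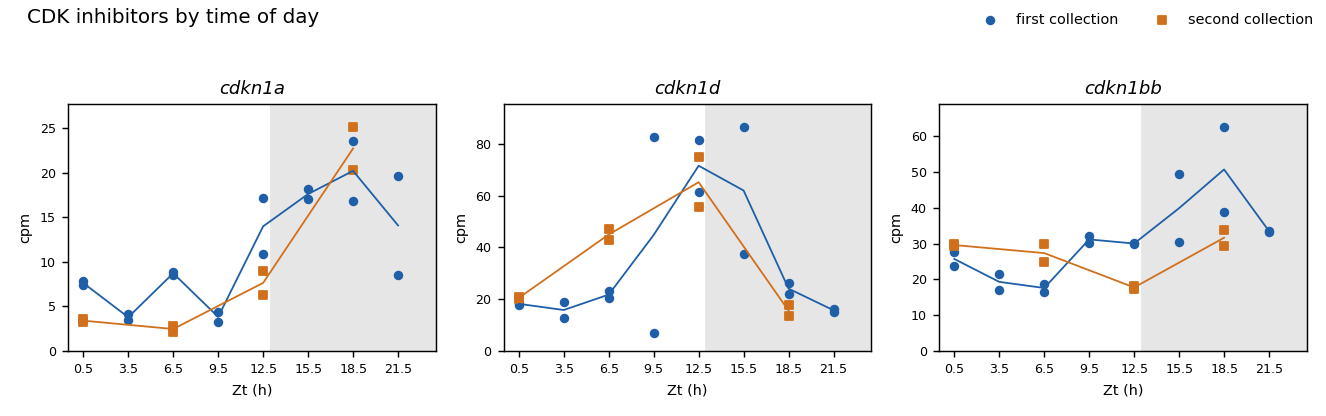
Levels of 3 CDK inhibitors in cpm (y axis, linear) against Zt in h (x axis), drawn as in the plot of S-phase genes. In the second collection *cdkn1a* had 2.72 and 2.15 cpm in the Zt 6.5 pair and 25.2 and 20.3 cpm in the Zt 18.5 pair, and *cdkn1d* had its highest mean at Zt 12.5 in both collections.

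In the second collection most S-phase members had their highest mean at the end of the light phase and most mitotic members in the night. Of 23 S-phase members, 16 had the highest of 4 means at Zt 12.5, against 34.5% of all expressed genes, and 12 the lowest at Zt 0.5 (28.4% of all genes). Of 34 mitotic members, 23 were highest at Zt 18.5, against 31.3%, and 22 lowest at Zt 6.5, against 20.4%. Summed S-phase levels were 398 and 428 cpm in the Zt 12.5 pair and 223 to 365 cpm in the other fish. Summed mitotic levels of the Zt 18.5 pair, 522 and 468 cpm, overlapped fish A of Zt 0.5 at 470 cpm. Fish B of Zt 12.5 came close at 462 cpm. At the same 4 time points in the first collection, 18 of 23 S-phase members were highest at Zt 6.5 (30.3% of all genes) and 32 of 34 mitotic members at Zt 12.5 (32.1%).

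The 4 pairs of the second collection had 50.2 and 31.7, 46.4 and 50.9, 60.4 and 62.5, and 49.1 and 34.7 cpm of *mcm2* in order of Zt. Its Zt 12.5 pair was above the rest, by less than the Zt 6.5 pair of the first collection stood out. *cdk2* rose more, with 5.79 and 4.15, 8.81 and 9.55, 16.5 and 15.5, and 6.93 and 6.15 cpm in the same order. *cdk1* had 12.4 and 7.88, 9.60 and 16.3, 14.1 and 22.3, and 22.0 and 16.3 cpm, and its pairs overlapped between neighbouring time points.

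**Figure D4:**
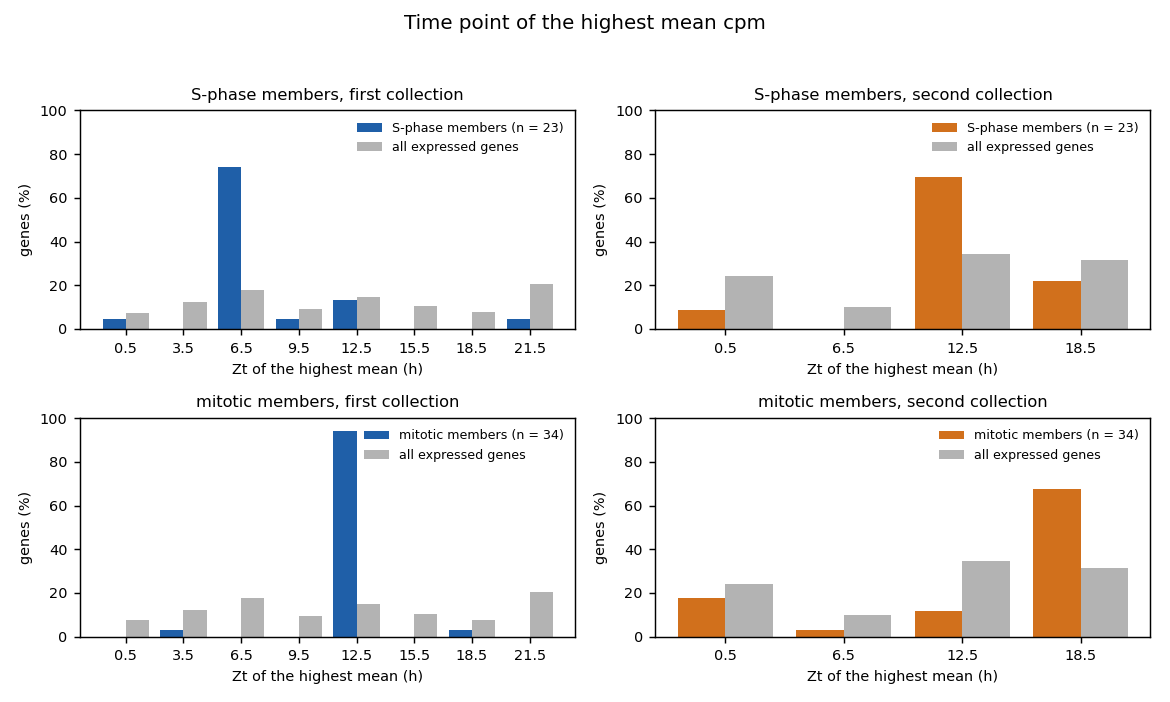
Share of genes (y axis, %) with their highest mean at each Zt (x axis, h), for 23 S-phase (upper) and 34 mitotic genes (lower) in the first (left) and second collection (right), beside all expressed genes in grey. S-phase genes gather at Zt 6.5 in the first collection (17 of 23) and Zt 12.5 in the second collection (16 of 23), and mitotic genes at Zt 12.5 (32 of 34) and Zt 18.5 (23 of 34).

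The edgeR cosine fit called 47 of 141 members in the second collection, close to the 37.9% of all genes (7042 of 18556) called in that collection. In S phase these were *cdk2* (amplitude 0.90 ± 0.09, log2, peak Zt 11.3, adjusted p = 0.00044), *mcm4* (0.59 ± 0.10, Zt 11.9, adjusted p = 0.00672), *mcm6* (Zt 11.3, adjusted p = 0.0167) and *MCM7* (Zt 12, adjusted p = 0.0157), 4 of 23. Among the mitotic members, *CDC25B* (Zt 19.9, adjusted p = 0.00131), the aurora kinase *aurka* (Zt 16.2, adjusted p = 0.0168), *cenpf* (Zt 16.6, adjusted p = 0.0224) and the kinetochore subunit *cenpk* (Zt 16.6, adjusted p = 0.0281) were called, 4 of 34. Both shares are below that of all genes, and with 4 time points a fitted peak lies between samples. The counts ranged from 2 to 9 in S phase and from 1 to 11 in mitosis when 1 library was left out.

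Members moved together between fish in the second collection as well. At Zt 0.5 fish A was higher than fish B in 23 of 23 S-phase and 31 of 34 mitotic members, and at Zt 12.5 fish A was higher in 0 of 34 mitotic members.

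Over both collections, a common 24-h cosine called 22 of 141 members, the share of all genes being 15.8% (3000 of 19020). No S-phase member was among them in edgeR (2 at an unadjusted p under 0.05) or in DESeq2. *CDC25B* was the only mitotic member in edgeR, where 9 had an unadjusted p under 0.05. DESeq2 called 2 mitotic members, beside 4546 of 19020 genes. With the replicate letter as a block, edgeR called 5 mitotic members, beside 2836 of 19413 genes. *CDC25B* (ENSXMAG00000005736; chromosome 19, 21234460 to 21245166) had its lowest pair of the first collection at Zt 3.5 (15.5 and 19.1 cpm) and its highest at Zt 18.5 (61.8 and 71.0 cpm). In the second collection the Zt 6.5 pair had 7.55 and 8.05 cpm and the Zt 18.5 pair 26.6 and 24.5 cpm. In each collection the Zt 18.5 pair was above all other fish, and the common fit put the peak at Zt 18.6 (amplitude 0.70 ± 0.12, adjusted p = 0.00254). The count of mitotic members was 7 without fish D of Zt 0.5 in the first collection, beside 2611 of 18980 genes, and 1 without any other library. The count of S-phase members was 2 without fish B of Zt 9.5 in the first collection, beside 4380 of 18983 genes, and 0 without any other library. Without both Zt 9.5 libraries 3 S-phase members were called, beside 6803 of 18983 genes. At the 4 shared time points 2 S-phase and 3 mitotic members were called, beside 5237 of 18935 genes.

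Outside S phase and mitosis, the common fit called the inhibitors *cdkn1a* (Zt 17.2, adjusted p = 8.64e-05) and *cdkn1d* (Zt 11.7, adjusted p = 0.00142) and the G1 kinases *cdk4* (amplitude 0.33, Zt 5.7, adjusted p = 0.0206) and *cdk6* (amplitude 0.45, Zt 19.6, adjusted p = 0.0159), whose products phosphorylate the retinoblastoma protein. The 2 kinases were fitted with peaks on opposite sides of the day. It also called the APC/C subunits *cdc27* (Zt 9.1, adjusted p = 0.0123) and *cdc23* (Zt 10.9, adjusted p = 0.0168), *plk3*, a stress-responsive polo-like kinase (Zt 22.7, adjusted p = 0.00805), and *aurkaip1*, a mitochondrial ribosome protein named for its binding to aurora A (Zt 8.8, adjusted p = 0.0178). The total ranged from 14, without fish C of Zt 0.5 in the first collection, to 35, without fish A of Zt 9.5 in the first collection. All genes called in these fits were 2254 of 18978 and 5063 of 19013.

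Whether the course itself differed between collections depended on the tool, the terms fitted and single fish. At the 4 shared time points, the collection by cosine term of edgeR called 0.0939% of all genes (18 of 19169) and 0 of 141 members, with 35 members at an unadjusted p under 0.05, among them 10 of 23 in S phase and 0 of 34 in mitosis. DESeq2 on the same terms called 20 members, 6 of them in S phase and none mitotic, beside 8.26% of all genes. Without fish C of Zt 18.5 in the first collection the edgeR term called 15 members, beside 986 of 19476 genes. Without fish D it called 16, beside 1628 of 19476 genes. In each of these fits 4 were in S phase, and without any other library 0 members were called. With time point as a factor, edgeR called 22 members beside 11.8% of all genes, and again 6 S-phase and 0 mitotic members: *cdk2* (adjusted p = 0.00468), *mcm6* (0.0159), *mcm4* (0.0275), *orc1* (0.0342), *mcm2* (0.0429) and *MCM7* (0.0476).

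In *cdk2*, the first collection went from 22.9 and 20 cpm in the Zt 6.5 pair to 9.03 and 11.7 cpm in the Zt 12.5 pair, and the second from 8.81 and 9.55 cpm to 16.5 and 15.5 cpm. The order of these time points was thus opposite in the 2 collections, with no overlap between them in either. The Zt 6.5 pairs of *orc1* had 30.7 and 32.9 cpm in the first collection and 10.0 and 9.32 cpm in the second, far apart. Its Zt 12.5 pairs, at 18.6 and 23.9 cpm and at 15.8 and 18.4 cpm, lay closer.

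Mitotic members were lower in the second collection, by a median of 3.25-fold at the shared time points. At the 4 shared time points (8 fish against 8, time point as a factor, edgeR), 45.6% of all genes were called, 22.2% lower and 23.4% higher in the second collection, and 33 of 34 mitotic members were lower and none higher. Their median log2 difference was −1.70 (range −2.46 to 0.13), while that of all 18935 genes was 0.01. A log2 difference under −1 was found in 31 of 34 mitotic members (91.2%), in 7 of 23 S-phase members (30.4%) and in 5.84% of all genes.

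The mitotic kinases and cyclins had a median of −2.03. *cdk1* ranged from 39.8 to 113 cpm (median 59.0) in the 8 matched fish of the first collection and from 7.88 to 22.3 cpm (median 15.2) in the 8 fish of the second. The collections did not overlap, and the log2 difference was −2.03 ± 0.19 (SE; adjusted p = 3.82e-06). *ccnb1* ranged from 15.1 to 72.8 cpm (median 39.3) in the first and from 2.99 to 11.5 cpm (median 9.20) in the second, again apart (−2.22 ± 0.22, adjusted p = 6.21e-06). *aurkb*, the kinase of the chromosomal passenger complex, fell from a mean of 30.2 ± 10.8 to 6.12 ± 2.07 cpm (SD, n = 8 each; −2.28 ± 0.19), and *ccnb2* and *aurka* lay close to it at −2.23 and −2.12.

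Checkpoint, kinetochore and condensin genes had medians of −1.66, −1.53 and −1.73. *cenpf* had 35.2 to 136 cpm (median 73.3) in the first and 7.31 to 20.3 cpm (median 13.2) in the second, and was one of the lowest members at −2.46 ± 0.19 (adjusted p = 7.78e-07). *BUB1* stood at −2.13, the APC/C activator *cdc20* at −1.92, the checkpoint kinase *bub1bb* at −1.41, and the condensin subunits *ncapg2* and *ncapg* at −1.98 and −1.91. At the other end, *bub3*, a checkpoint protein with further work in interphase, differed by −0.44 ± 0.09 (adjusted p = 0.00107) with collections that overlapped, and *CENPS*, at 95.7 ± 13.1 and 103 ± 6.73 cpm (SD, n = 8 each), was the only mitotic member not called (0.13 ± 0.06, adjusted p = 0.0952).

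The 8 mitotic kinesins were all lower, with a median of −1.85. *kif11*, the motor that pushes spindle poles apart, had 37.2 to 101 cpm (median 53.5) in the first and 8.73 to 19.9 cpm (median 16) in the second (−1.95 ± 0.15, adjusted p = 5.74e-07). *kif20a* and *kif20ba*, motors of the late spindle and cytokinesis, differed by −2.46 and −2.34. In all, 28 of 34 mitotic members had every fish of the second collection below every matched fish of the first, as had 5.36% of all genes, and none had every one above (4.81% of all genes).

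The S-phase members were lower by less: 19 of 23 were called lower and 0 higher (22.2% and 23.4% of all genes), with a median of −0.72. *mcm2* overlapped, at 49.1 to 120 cpm (median 80.2) in the first and 31.7 to 62.5 cpm (median 49.6) in the second (−0.75 ± 0.17, adjusted p = 0.00268). *cdc6*, which loads the helicase, differed by −1.24 ± 0.16 and did not overlap, and *ccne2*, a cyclin E, *gins1* and *orc1* differed by −1.42, −1.15 and −1.14. *mcm3*, *mcm6* and *cdc45* lay at −0.64, −0.71 and −0.72. The 4 not called were *mcm10*, *orc2*, *cdca7a* and the other cyclin E, *ccne1*, at −0.01 ± 0.11 (adjusted p = 0.967). The call of *cdk2* (−0.62, adjusted p = 0.0344) was lost in 11 of 16 fits that left out 1 library.

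How large the difference was depended on which first-collection fish were compared, since the matched fish were all lettered C or D. Against the 8 fish of the first collection lettered A or B, with cosine and sine terms for time, 29 mitotic members were lower with a median of −1.07, and 10 S-phase members with a median of −0.43; *mcm2*, *mcm3*, *mcm6* and *cdk2* were then not called. With all 24 libraries the counts were 33 and 11 and the medians −1.40 and −0.57. In either direction, the fit with fish lettered A or B called 4576 of 18820 genes, and that with all 24 libraries 6632 of 19020.

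**Figure D5:**
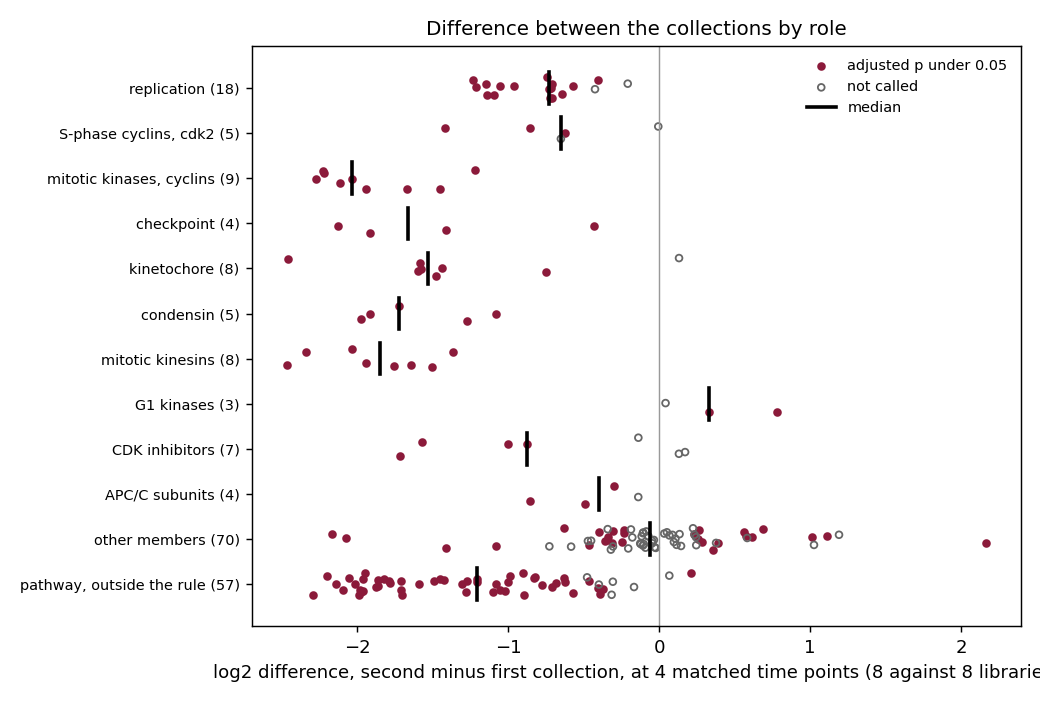
Log2 difference of the second minus the first collection at 4 shared time points (x axis; 8 against 8 fish) for each member by role (y axis, number of genes tested in brackets); filled points had an adjusted p under 0.05 in edgeR, open points did not, and bars are medians. Mitotic roles lie left of −1 apart from few genes such as *bub3* at −0.44 and *CENPS* at 0.13, S-phase roles have medians of −0.73 and −0.65, and members with other roles centre at −0.06.

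Of the 3 G1 kinases none was lower, and of the 7 CDK inhibitors 4 were lower and 0 higher, with a median of −0.88. The shares of all genes were 22.2% lower and 23.4% higher, and these roles hold few genes. *cdk4* was higher in the second collection (92.0 ± 15.3 against 115 ± 16.1 cpm, SD, n = 8 each; 0.33 ± 0.10, adjusted p = 0.0129), *cdk21*, at a mean under 1 cpm, likewise (0.78, adjusted p = 0.0306; lost in 8 of 16 fits without 1 library), and *cdk6* differed by 0.04 ± 0.16 (adjusted p = 0.845). Among the inhibitors, *cdkn2a/b*, *cdkn3*, *cdkn2c* and *cdkn1a* were lower (−1.72, −1.57, −1.0 and −0.88), and *cdkn1bb*, *cdkn1d* and *cdkn1cb* were not called (−0.14, 0.13 and 0.17). *cdkn3* encodes a phosphatase that acts on CDKs in mitosis. The APC/C subunits *cdc23*, *cdc26* and *cdc27* were lower by less than the mitotic median (−0.86, −0.49 and −0.30), and *cdc16* was not called.

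Members with other roles were spread around no difference: 14 of 70 were lower and 13 higher, with a median of −0.06. Over all genes 22.2% were lower and 23.4% higher. The lowest were *cdk19*, a kinase of the Mediator complex (−2.17), *kif13ba*, a transport kinesin (−2.07, at 25.9 to 33.0 cpm against 5.09 to 18 cpm), *mcm8*, which acts in homologous recombination rather than in the replicative helicase (−1.41), and *cdc34a*, a ubiquitin-conjugating enzyme (−1.08). The highest were *KIF5A*, a neuronal transport kinesin (2.16), and *kif19*, a kinesin of cilia (1.11). *KIF5A* was near the floor in the matched fish of the first collection, at 0.088 to 0.578 cpm, where no counts allow up to 0.0832 to 0.117 cpm. One fish carries much of the *KIF5A* level: fish A of Zt 0.5 in the second collection had 4.54 cpm against 0.54 to 1.13 cpm in the other 7, and without it the mean fell from 1.34 to 0.88 cpm and the log2 difference was 1.77 (adjusted p = 0.00227, edgeR). Members grouped here under other roles or none therefore did not share 1 direction.

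Genes of the pathway that the rule does not name were taken from a list of 75 symbols, of which 59 were matched and 57 gene IDs tested. In the second collection, 50 of these 57 were lower, against 22.2% of all genes, with a median of −1.21. Of the others, 1 was higher (the G1 cyclin *ccnd1*, 0.21), against 23.4% of all genes, and 6 were not called. *rrm2*, the S-phase subunit of ribonucleotide reductase, had 96.9 to 247 cpm (median 152) in the first and 20.2 to 42.5 cpm (median 33.8) in the second (−2.20 ± 0.19, adjusted p = 1.54e-06). *top2a*, the topoisomerase of mitotic chromosomes, did not overlap either (−1.70), while *pcna*, the sliding clamp of the polymerases, did, at 90.7 to 212 against 40.2 to 91.8 cpm (−1.08 ± 0.14). *wee1*, which restrains cdk1, differed by −0.83, with its call lost against the fish lettered A or B. The edgeR cosine called *pcna* in the second collection (peak Zt 10.1, adjusted p = 0.000992), where 37.9% of all genes were called. It did not call *pcna* in the first collection (adjusted p = 0.143), where 1.56% of all genes were called. The common fit over both collections called it (adjusted p = 0.0232), a call lost in 2 of 31 alternatives.

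Markers of other cell types differed between the same libraries. Summed keratinocyte markers (krt5, tp63, epcam and ppl, 4 of 7 matched) were 18076 to 41756 cpm in the matched fish of the first collection and 36976 to 43172 cpm in the second collection. That sum is mostly krt5, which was higher in the second collection (0.49), whereas epcam and ppl were lower (−0.49 and −0.51) and tp63 was not called. Summed markers of skeletal muscle (4 of 8 matched) were 2135 to 11251 and 2211 to 4605 cpm. Of these, mylpfa, tnnt3a and ckma were lower in the second collection (−1.74, −1.27 and −0.72) and ckmb was not called. Leukocyte markers (3 of 7 matched) were 1625 to 3909 and 3352 to 4589 cpm, with all 3 genes higher in the second collection. Bone and scale markers were 230 to 554 and 346 to 794 cpm, with sp7, runx2b and col10a1a higher in the second collection and spp1 not called. Germ-line markers (6 of 8 matched) were 1.42 to 3.41 and 2.03 to 9.60 cpm, with ddx4 higher in the second collection (1.19). Among them sycp3 and tex11 were not called and the others not tested. Nerve markers (3 of 5 matched) were 77.9 to 140 and 118 to 172 cpm, with elavl4 and mpz higher (1.88 and 0.60) and elavl3 not tested. Pigment markers (3 of 8 matched) were 2.46 to 5.54 and 3.18 to 9.36 cpm, with dct higher (0.81) and the others not called. The blood marker alas2 was not called. Of the 5 retinal genes, rho, gnat1, pde6a and crx were at or near 0 and gnat2 had means of 9.87 and 10.1 cpm. The 4 epidermal markers were detected in both collections. The part of cell composition in the difference between collections was not tested.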

How the data were processed

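The authors deposited raw read counts per gene for 24 skin libraries: trimmed paired reads were mapped with TopHat2 to *X. maculatus* genome version 5.0 and counted with featureCounts over Ensembl gene models, with tool versions and the treatment of strand and multi-mapped reads not given in the sources used here. Reads of close paralogs, overlapping genes and antisense genes may thus be shared among them (for example *cdca7a* and *cdca7b*). Each fish gave 1 library, with 2 per time point. Labels give clock times, set to Zt by the study's methods, which name a single age for all fish where the labels give 24 months for the first collection (library year 2016) and 12 for the second (2018).

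Counts were scaled to cpm by total count. The study used the rain algorithm for rhythms; the rank test here is not rain but an exact permutation over the 8 time point means, and shares with the study only the filter (mean above 1 cpm at 2 or more time points) and p under 0.01. Its rise was limited to 3 to 5 of the 8 steps after a form with no limit failed on simulated cosines. edgeR 4.0.16 (R 4.3.3, limma 3.58.1) fitted quasi-likelihood models with TMM, filterByExpr and Benjamini-Hochberg adjustment over all genes at 0.05. DESeq2 1.42.0 was an alternative, with other scalings, no low-count filter, time as a factor, the replicate letter as a block and each library left out. The main edgeR fits and the rank test were checked on simulated data. DESeq2, time point as a factor and the replicate block were not. Counting error sets little of the error at these depths, apart from genes with few counts such as *KIF5A* in the first collection. The p-values of edgeR and DESeq2 measure the spread of fish around the fitted course. In the cosine fits this spread also holds the departure of the time point means from a cosine. The p-values of the rank test are computed on the time point means and leave out the spread between fish. Zero counts were read as allowing up to 3 counts.

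Members and lists were chosen with earlier results of these data known. Symbols come from the published lists, 10 of them by gar ortholog, after repair of 19 damaged identifiers, and 106 members have a RefSeq symbol (X_maculatus-5.0-male). Named genes were a fixed set by role plus up to 2 per role with the smallest p in each test. Further genes are named as exceptions, and were chosen after their values were seen.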

Additional observations from a re-analysis of the deposited data

Results flagged for a closer look

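The daily course was called different between the collections for 22 of 141 members when time point entered the edgeR test as a factor (collection by time point, 4 shared time points), against 11.8% of all genes. The main test, the collection by cosine term of edgeR, called 0 of 141 members and 18 of 19169 genes, so the result depends on the terms fitted. In S phase the difference was found for *cdk2* (adjusted p = 0.00468), *mcm6* (adjusted p = 0.0159), *mcm4* (adjusted p = 0.0275), *orc1* (adjusted p = 0.0342), *mcm2* (adjusted p = 0.0429) and *MCM7* (adjusted p = 0.0476). For each of these 6 genes the highest mean of the 4 shared time points was at Zt 6.5 in the first collection and at Zt 12.5 in the second collection. Collection year, labelled age, preparation and the letters of the fish cannot be told apart in this difference.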

How the results depend on the processing

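With 2 fish per time point, single fish decide several counts. In the difference between collections, 33 mitotic members were lower in every fit that left out 1 library (median log2 difference −1.82 to −1.63). S-phase members numbered 16 to 20 (median −0.83 to −0.68) and all members called 79 to 93. All genes called in these fits, in either direction, were 7724 to 9177. An alternative chosen after seeing the data compared with the libraries of the first collection lettered A or B. It called 56 members, 10 in S phase (median −0.43), beside 4576 of 18820 genes, and the mitotic median was −1.07. With all 24 libraries 11 S-phase members were lower, and 6632 of 19020 genes were called. The difference of *cdk6* (0.04) ranged from −0.075 to 0.10 without 1 library, changing sign in 4 fits, and was never called.

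Members called by the rank test of the first collection were 5, but 1 with TMM sizes (all genes: 678 of 16951) and 11 at p under 0.05 (10.9% of all genes). With no limit on the rise (chosen after seeing the data) 1 member was called, in S phase (all genes: 222 of 16963). With all 24 libraries 7 were called, 3 of them mitotic (all genes: 779 of 17064), from means that mix the collections at the shared time points. Without 1 library the count was 1 to 6. The first-collection cosine called 3, but 15 with DESeq2 (9.22% of all genes). Without both Zt 9.5 libraries (chosen after seeing the data) it called 19 (16.3% of all genes). Without 1 library it called 0 to 9. It called 9 without fish B of Zt 9.5 (all genes: 1187 of 18548) and 5 without fish A (all genes: 725 of 18563). The second-collection cosine called 47 (37.9% of all genes) and 37 to 61 without 1 library, while all genes called without 1 library were 4505 to 6984. The cosine over both collections called 22 (15.8% of all genes), but 38 at the 4 shared time points (all genes: 5237 of 18935). Without both Zt 9.5 libraries it called 51 (all genes: 6803 of 18983). Without 1 library it called 14 to 35, and those 2 fits called 2254 of 18978 and 5063 of 19013 genes. The collection by cosine test called 0, but 1 with DESeq2 size factors (all genes: 90 of 19169). It called 20 with DESeq2 (8.26% of all genes) and 22 with time point as a factor (11.8% of all genes). Without 1 library it called 0 to 16, the 16 lacking fish D of Zt 18.5 in the first collection (all genes: 1628 of 19476). The cause of these shifts was not tested.

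The S-phase count lowest at Zt 9.5 was 17, but 11 with TMM sizes and 11 to 17 without 1 library; that highest at Zt 6.5 was 16 to 19, and the mitotic counts were 31 to 32 (highest at Zt 12.5) and 20 to 32 (lowest at Zt 3.5).

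With the replicate letter as a replicate block, 1 member was called in the first collection, 47 in the second collection, 24 over both (5 mitotic) and 0 for the difference in course. All genes called were, in the same order, 177 of 18946, 6592 of 18995, 2836 of 19413 and 3 of 19550. The letters are different fish; deviations of same-lettered fish correlated at −0.24 to 0.30 in the first collection and 0.12 to 0.27 in the second collection, where all 6 comparisons were above 0.1. With 2 letters per time point and no label saying what a letter marks, whether letters pair the fish was not settled. No paired analysis was possible between collections because matched fish of the first carry C or D and those of the second A or B.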
